A study of Mus musculus with 10 samples.

Results

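Immunoglobulin genes, which encode antibodies, were examined in RNA of neutrophils sorted from grafted mouse squamous cell carcinomas. The members were the genes that GENCODE M21 types as immunoglobulin constant (C), variable (V), joining (J) or diversity (D) genes and whose estimated counts summed to at least 100 over the 10 libraries, with Jchain and Mzb1 added by name. This gave 95 genes of 55385 in the table. They were 93 of the 264 C, V, J and D genes plus both partners. There were 8 heavy C, 2 heavy J, 32 heavy V, 1 kappa C, 4 kappa J, 40 kappa V, 3 lambda C and 3 lambda V genes. The members were thus chosen by their summed counts, so that they are present is a description. The genes just inside the minimum were Ighv1-53 with 100 counts and Ighv1-34 and Iglv3 with 104 each. Just outside it were Ighv1-69 with 97, Ighv3-6 with 94 and Igkv6-14 with 93. The 19 D genes were all at 0 in every library.

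All hosts were CatchupIVM-red mice, in which a red Tomato reporter is driven from the neutrophil gene Ly6g, and Tomato-positive cells were isolated from the tumours. The tumours grew from grafted squamous carcinoma cells that were either parental, with low Sox2 (control), or had high Sox2 (Sox2Hi). Mice were left without treatment (naive) or received an antibody to PDL1 with a CD40 agonist (treated). There were 3 naive libraries of each graft (control naive and Sox2Hi naive) and 2 treated libraries of each (control treated and Sox2Hi treated). No label states that replicates came from separate animals, so p-values measure only the spread between these libraries, which may be technical. The deposited column names add the tag C57 to all libraries and GFP to the control graft, without saying what either stands for. They also give 3 of the 4 treated libraries a replicate number other than that of the title, and titles are followed here. Ages, doses and the number of animals in a library are not given in the sources used here.

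An antibody is made of heavy chains paired with kappa or lambda light chains. In each developing B cell 1 V gene is joined to a J gene (with a D gene in the heavy chain) and spliced to a C gene, so a clone of B cells or plasma cells carries its own V and J choice. The heavy C gene sets the isotype: Ighm gives IgM, the Ighg genes IgG, Igha IgA and Ighe IgE. Plasma cells, the secreting end stage, transcribe these genes at very high levels, and neutrophils are not known as antibody producers.

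The V genes that led single libraries, or whose level set groups apart, are shown by the last 300 bases of the coding part of their GENCODE M21 transcripts, so that their likeness to each other can be read. Capitals mark bases that lie in a stretch of 31 bases found in no other M21 gene, and lower case marks bases that do not. The stretch length is the usual word length of the kallisto quantifier. Igkv6-15 led Sox2Hi naive replicates 2 and 3, Igkv8-30 led Sox2Hi treated replicate 2, Igkv8-27 led control treated replicate 2 and Igkv4-61 led control treated replicate 1. Igkv8-24 was high in all 3 Sox2Hi naive libraries, Iglv1 was present in all 10 libraries, and Iglv2 was high in 2 of them.
Igkv6-15: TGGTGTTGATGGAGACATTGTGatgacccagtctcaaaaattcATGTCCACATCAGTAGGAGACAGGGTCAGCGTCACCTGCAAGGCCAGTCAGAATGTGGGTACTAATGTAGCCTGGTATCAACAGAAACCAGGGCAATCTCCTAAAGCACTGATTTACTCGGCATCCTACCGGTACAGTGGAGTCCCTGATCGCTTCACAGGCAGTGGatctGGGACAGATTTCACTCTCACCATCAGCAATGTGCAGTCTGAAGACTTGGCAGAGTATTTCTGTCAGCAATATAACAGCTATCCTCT
Igkv8-30: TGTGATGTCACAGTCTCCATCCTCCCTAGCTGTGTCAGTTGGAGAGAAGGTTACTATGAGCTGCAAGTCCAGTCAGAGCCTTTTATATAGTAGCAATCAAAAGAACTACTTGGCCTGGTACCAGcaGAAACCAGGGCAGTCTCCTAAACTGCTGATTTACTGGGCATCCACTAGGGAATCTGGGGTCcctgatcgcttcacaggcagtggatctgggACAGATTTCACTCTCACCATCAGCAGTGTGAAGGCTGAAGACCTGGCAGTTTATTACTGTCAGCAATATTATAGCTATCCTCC
Igkv8-27: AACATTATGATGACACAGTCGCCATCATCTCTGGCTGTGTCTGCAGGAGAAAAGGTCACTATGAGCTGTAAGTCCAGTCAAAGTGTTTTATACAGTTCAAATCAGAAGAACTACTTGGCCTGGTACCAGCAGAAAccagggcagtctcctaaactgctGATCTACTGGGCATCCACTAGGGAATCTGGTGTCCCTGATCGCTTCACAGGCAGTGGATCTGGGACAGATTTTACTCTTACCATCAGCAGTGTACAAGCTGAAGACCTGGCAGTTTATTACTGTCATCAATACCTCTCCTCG
Igkv8-24: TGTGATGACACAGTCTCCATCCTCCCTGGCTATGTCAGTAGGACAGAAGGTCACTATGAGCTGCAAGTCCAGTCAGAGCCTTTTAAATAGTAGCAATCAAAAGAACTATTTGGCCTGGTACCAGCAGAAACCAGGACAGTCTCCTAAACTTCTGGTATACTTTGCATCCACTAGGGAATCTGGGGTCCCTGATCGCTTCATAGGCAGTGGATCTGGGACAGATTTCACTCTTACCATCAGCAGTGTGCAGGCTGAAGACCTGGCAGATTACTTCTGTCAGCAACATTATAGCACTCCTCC
Igkv4-61: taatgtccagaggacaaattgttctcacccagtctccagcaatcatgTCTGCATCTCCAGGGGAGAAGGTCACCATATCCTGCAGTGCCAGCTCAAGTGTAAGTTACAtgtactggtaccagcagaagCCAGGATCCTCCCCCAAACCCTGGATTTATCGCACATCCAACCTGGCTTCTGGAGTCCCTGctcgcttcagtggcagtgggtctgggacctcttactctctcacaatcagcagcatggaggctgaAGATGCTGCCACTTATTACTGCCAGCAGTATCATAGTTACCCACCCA
Iglv1: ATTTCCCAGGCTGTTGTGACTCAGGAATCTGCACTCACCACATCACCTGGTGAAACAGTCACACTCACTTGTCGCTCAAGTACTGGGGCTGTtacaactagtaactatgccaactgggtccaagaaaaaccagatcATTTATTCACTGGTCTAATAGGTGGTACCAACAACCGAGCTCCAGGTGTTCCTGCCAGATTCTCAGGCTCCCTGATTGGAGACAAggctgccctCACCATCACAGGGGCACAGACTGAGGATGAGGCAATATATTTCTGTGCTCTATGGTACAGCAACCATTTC
Iglv2: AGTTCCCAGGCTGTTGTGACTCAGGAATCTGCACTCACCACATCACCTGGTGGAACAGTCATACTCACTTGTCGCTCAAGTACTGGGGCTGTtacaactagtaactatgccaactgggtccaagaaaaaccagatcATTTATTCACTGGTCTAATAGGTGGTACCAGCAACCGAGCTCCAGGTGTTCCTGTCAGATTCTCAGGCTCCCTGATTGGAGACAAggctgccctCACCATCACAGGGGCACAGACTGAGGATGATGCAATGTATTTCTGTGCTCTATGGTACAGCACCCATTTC
Aligned end to end over the whole transcripts, Iglv1 and Iglv2 were identical at 90.5% of positions, Igkv8-30 and Igkv8-27 at 86.1%, and Igkv8-30 and Igkv8-24 at 90.2%. The kappa V genes lie on chromosome 6 of GRCm38, all on the minus strand: Igkv6-15 at chr6:70406469-70406992, Igkv8-30 at chr6:70117061-70117620, Igkv8-27 at chr6:70171809-70172270, Igkv8-24 at chr6:70216858-70217421 and Igkv4-61 at chr6:69416893-69417455. Iglv1 is at chr16:19085017-19085500 and Iglv2 at chr16:19260401-19260859, both on the minus strand. Of the 31-base stretches, 64.0% were unique to the gene in Igkv6-15 and 30.7% in Igkv4-61, whose nearest gene was Igkv4-74. Counts of V genes with few unique stretches are therefore uncertain, since reads can be split between near copies.

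The 4 kappa J genes among the members lie on the plus strand of chromosome 6 and show which joining event a kappa message carries. Capitals mark the motif TTCGGNNNNGGNAC, which codes for the phenylalanine and glycines shared by light chain J regions. The motif was searched on both strands and was found in 8 of the 14 J genes of M21, on the coding strand only.
Igkj1: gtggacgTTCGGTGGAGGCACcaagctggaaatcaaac
Igkj2: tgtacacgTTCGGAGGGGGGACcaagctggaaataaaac
Igkj4: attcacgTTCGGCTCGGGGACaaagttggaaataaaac
Igkj5: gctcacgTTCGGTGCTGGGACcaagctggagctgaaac

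Library totals ran from 13815734 to 22986193 counts. Reads over 1464 olfactory and vomeronasal receptor genes, taken as silent, gave a background of 2.51 to 8.85 counts per kb of exon, lowest in the 2 control treated libraries. Scaled to exon length, this rate accounted for 0.133% to 7.03% of a library's immunoglobulin counts. The 158 immunoglobulin V pseudogenes, which lie among the V genes, were measured at 0.671 to 0.823 times that rate. The highest of them, Gm37961, summed to 58 counts over all libraries. Of 18 neutrophil list genes, 16 or 17 were over 3 times the silent rate in each library. All 8 keratinocyte and all 8 macrophage list genes were over it in every library too.

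The 93 C, V and J genes took a small and uneven share of each library. Control naive replicates 1 to 3 gave them 0.0415%, 0.0642% and 0.0260% of counts, and control treated replicates 1 and 2 gave 0.0509% and 0.193%. The shares in Sox2Hi naive were 0.126%, 0.997% and 0.142%. Those in Sox2Hi treated were 0.0678% and 0.0620%. All 3 Sox2Hi naive libraries were above all 3 control naive libraries, and the 2 Sox2Hi treated libraries were below all Sox2Hi naive ones. The mean over control naive was 0.0439% ± 0.0192 (SD, n = 3), that over control treated 0.122% ± 0.101 (SD, n = 2), that over Sox2Hi naive 0.422% ± 0.498 (SD, n = 3) and that over Sox2Hi treated 0.0649% ± 0.00413 (SD, n = 2). Sox2Hi naive replicate 2 stood apart at 160410 immunoglobulin counts, and without it the Sox2Hi naive mean was 0.134%. In these bulk libraries, fewer antibody-making cells and less antibody RNA per cell cannot be told apart.

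**Figure D1:**
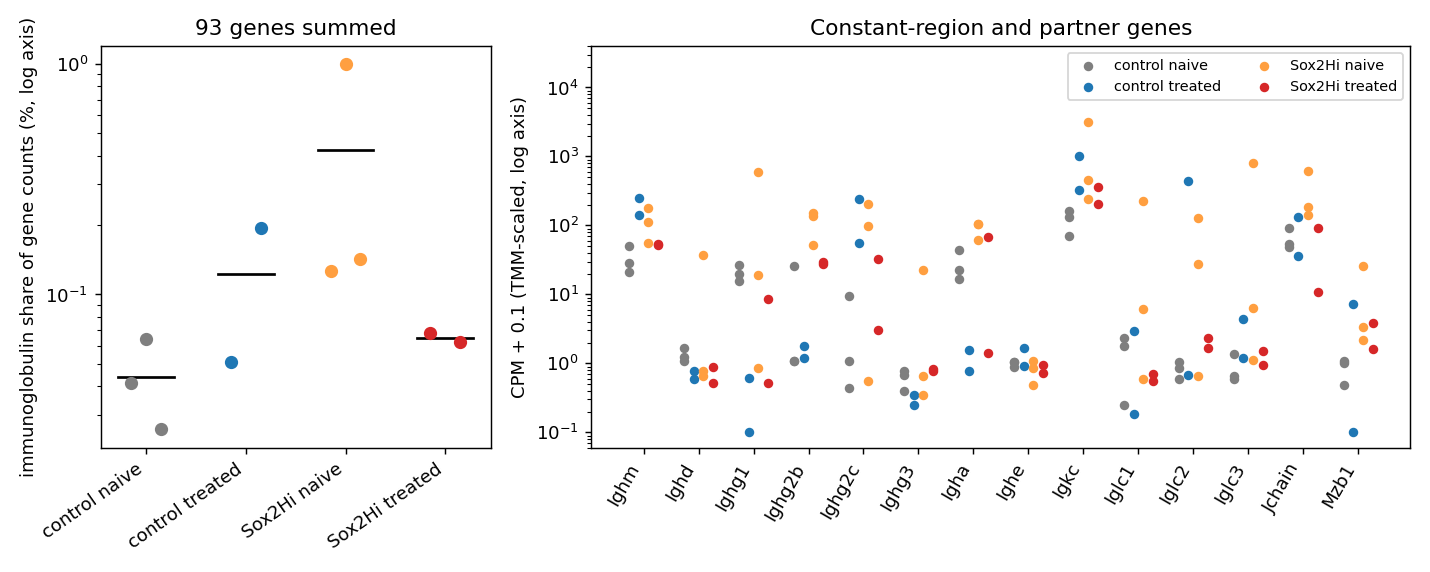
Left, share of each library's gene counts taken by the 93 immunoglobulin genes (percent, log axis), with points for libraries and bars for group means. Right, level of each constant-region and partner gene in every library (TMM-scaled CPM plus 0.1, log axis), coloured by group. The Sox2Hi naive library at 0.997% lies far above the others, and the control treated libraries hold almost no Igha.

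Heavy constant genes were compared between isotypes as counts per kb of exon. The share of Ighm, the IgM gene, had the smallest ratio of highest to lowest library among these genes. Of the heavy constant signal it held 31%, 43.8% and 45.1% in control naive, with 62.9% and 42.4% in control treated. In Sox2Hi naive it held 23.1%, 16.0% and 32.2%, with 30.7% and 65.2% in Sox2Hi treated. It was the leading isotype in 6 libraries and among the 2 leading ones in 8 of the 10.

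Which IgG gene was used differed from library to library within a group. Ighg1 held 20.8%, 9.87% and 30.6% in control naive, 38.2% in Sox2Hi naive replicate 2 and no more than 3.97% in any other library. Ighg2b held 44.6% in Sox2Hi naive replicate 1 and 25.5% in Sox2Hi treated replicate 2, against 1.04%, 15.7% and 1.10% in control naive. Both control treated libraries were low, at 0.339% and 0.201%. Ighg2c, the IgG2 gene carried by C57BL/6 mice in place of Ighg2a, held 35.4% and 56.8% in control treated. Its share was 19.9% in control naive replicate 1 but 1.23% and 0.775% in replicates 2 and 3, and 0.270% in Sox2Hi naive replicate 1 but 25.6% and 40.004% in replicates 2 and 3. For Ighg2b the 2 control treated shares lie below those of all other libraries, and Sox2Hi naive (44.6%, 8.60% and 10.7%) overlaps control naive. For Ighg2c the 2 control treated libraries lie above the 3 control naive ones.

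Igha, the IgA gene, was nearly missing from 3 libraries. Control naive libraries had 457, 831 and 337 counts of it and Sox2Hi naive ones 2078, 1828 and 1106. Sox2Hi treated replicate 1 had 1211 and replicate 2 had 22. Control treated had 8 and 20 counts, where the silent rate gives 6.71 and 7.43 for a gene of its length, and in Sox2Hi treated replicate 2 it gives 14.7. Its share of heavy constant signal was 23% ± 4.11 over control naive libraries (SD, n = 3) and 0.193% ± 0.0239 over control treated ones (SD, n = 2). The share was 16.8% ± 12.7 over Sox2Hi naive libraries (SD, n = 3) and 14.2% ± 18.4 over Sox2Hi treated ones (SD, n = 2). No Sox2Hi treated library lay near that group's mean.

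The heavy genes Ighe, Ighd and Ighg3 were low in most libraries. Ighe stayed between 7 and 19 counts in all libraries, where the silent rate gives 3.99 to 14. Ighd, made together with Ighm by mature B cells that have not switched, had 645 counts in Sox2Hi naive replicate 2 and 6 to 30 elsewhere. Ighg3 had 389 in that library and 2 to 13 elsewhere.

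**Figure D2:**
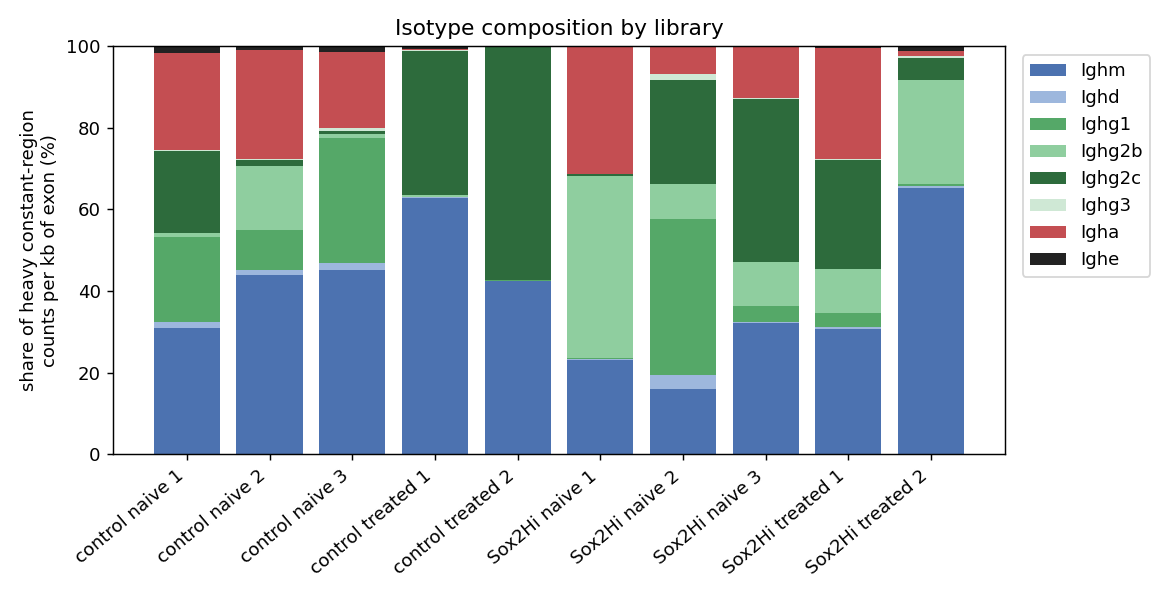
Share of each heavy constant-region gene in the summed heavy constant counts per kb of exon (percent), 1 bar per library. Igha is between 18.5% and 26.6% in control naive libraries and at 0.210% and 0.176% in control treated ones.

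Light chains were mainly kappa, as is usual in mice, and 3 libraries had more lambda than the rest. Igkc, the single kappa constant gene, held 98.9%, 97.4% and 95.1% of light constant signal per kb in control naive and 98.6% and 98.8% in Sox2Hi treated. In control treated it held 99.4% and 72.4%, and in Sox2Hi naive 65.9%, 72% and 99.5%. The lambda gene behind the low kappa shares was Iglc2 with 5894 counts in control treated replicate 2 and 2531 in Sox2Hi naive replicate 1. In Sox2Hi naive replicate 2 it was Iglc3 with 13746 and Iglc1 with 3931. Iglc2 had 7 to 37 counts in the 7 libraries other than these 3. The V genes matched: Iglv2 had 5166 and 2366 counts in the first pair of libraries and at most 37 in any other, and Iglv1 had 20364 in Sox2Hi naive replicate 2.

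Iglv1 was also the one V gene with at least 100 counts in every library. Outside Sox2Hi naive replicate 2 it ran from 113 to 862 counts, or 6.82 to 48.3 CPM, while Iglc1, in the same cluster on chromosome 16, had 1 to 121 counts. Iglc3 shares 25.1% of its 31-base stretches with Iglc2, so the division of lambda reads between those genes is uncertain. Light constant signal exceeded heavy constant signal per kb in all libraries, by 4.12 to 16.0 times.

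V genes were spread very unevenly, with 3 to 16 of 75 reaching 100 counts in a library, apart from Sox2Hi naive replicate 2 with 44. Of the 75 V genes, 42 reached 100 counts in exactly 1 library, 15 in 2, 6 in 3 and 4 in 4. Another 7 reached it in none, and Iglv1 in all 10. In 40 V genes at least 80% of the summed CPM came from a single library, which was Sox2Hi naive replicate 2 for 24 of them and another library for 16. Over the 9 libraries without it, 44 V genes reached 100 counts somewhere and 29 of these did so in exactly 1.

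Kappa V use was led by a different gene in nearly every library. In control naive the leaders were Igkv8-19 with 888 counts, or 47.6% of kappa V signal per kb, Igkv4-59 with 988 (44.5%) and Igkv12-98 with 489 (55.8%). Control treated replicate 1 was almost wholly Igkv4-61, with 2724 counts or 97.7%, and replicate 2 was led by Igkv8-27 with 5351 (52.3%). These 5 leaders were all different, and each had at most 8 counts in the control libraries it did not lead.

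Among Sox2Hi libraries, naive replicate 1 was led by Igkv2-137 with 1306 counts (25.9%). Replicates 2 and 3 shared a leader, Igkv6-15, with 17178 (45.8%) and 3031 (47.2%), though replicate 1 held only 13 counts of it. Sox2Hi treated replicate 1 had the most even kappa use, led by Igkv10-96 with 515 (21.4%). In replicate 2, Igkv8-30 with 2045 (64.3%) and Igkv8-28 with 889 (27.8%) together made up most of the signal. Igkv8-30 and Igkv8-28 are 89.5% identical, and 46.5% of the 31-base stretches of Igkv8-28 are unique to it.

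**Figure D3:**
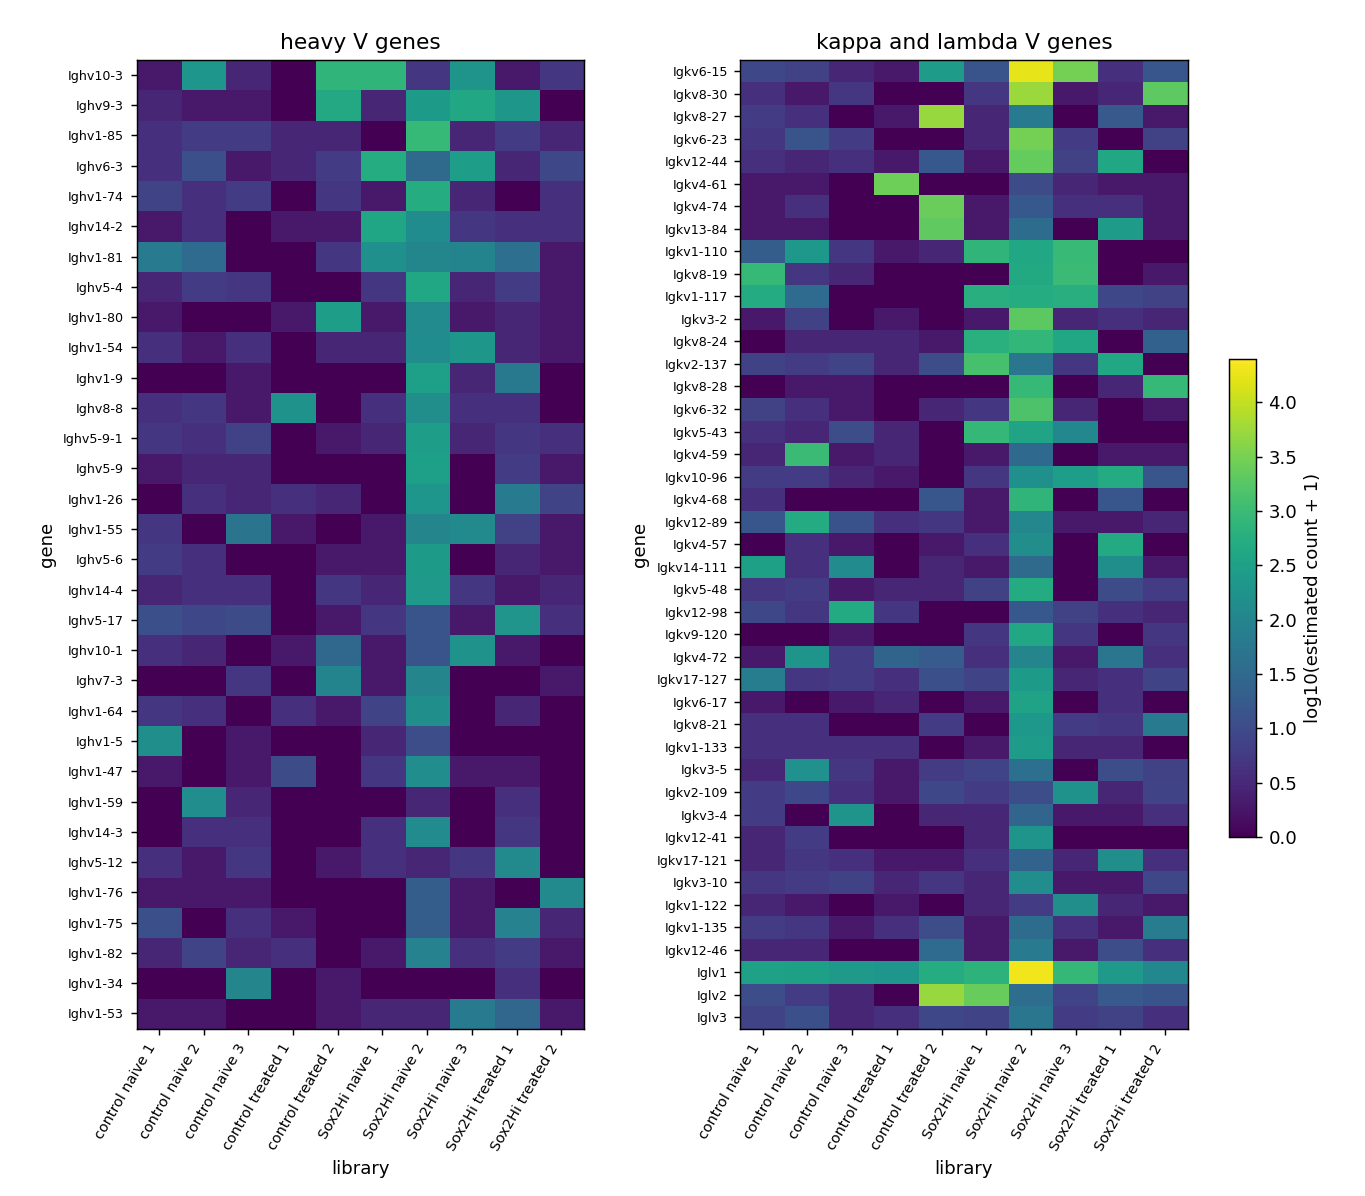
Counts of the 32 heavy V genes (left) and 43 light chain V genes (right) in each library, as log10(estimated count + 1). Most genes are bright in 1 column only, the column of Sox2Hi naive replicate 2 is bright for 44 genes, and Iglv1 is the single gene bright in all 10.

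Heavy V use followed the same form at lower counts. Ighv8-8 held 87.5% of heavy V signal per kb in control treated replicate 1, with 178 counts, and Ighv1-76 held 71.8% in Sox2Hi treated replicate 2, with 120. Control naive was led by Ighv1-5 (153 counts), Ighv10-3 (205) and Ighv1-34 (100). Ighv10-3 also led control treated replicate 2 with 763 and Sox2Hi naive replicate 1 with 755, and had at most 4 counts in 6 other libraries. Ighv9-3 led Sox2Hi naive replicate 3 with 422 and Sox2Hi treated replicate 1 with 213. The leader of Sox2Hi naive replicate 2, Ighv1-85 with 890, held only 18.1%, which was the most even heavy V use. Ighv1-85 and Ighv1-34 have only 24.6% and 23.5% of their 31-base stretches unique to them, so their counts are uncertain.

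The kappa J genes also differed between libraries, and 1 of them held most of the counts in 5 libraries. In control treated replicate 1 all 57 kappa J counts were Igkj1 (100%, exact 95% binomial interval 93.7% to 100%), beside its leading Igkv4-61. Control treated replicate 2 was led by Igkj2 with 191 of 226 counts (84.5%, interval 79.1% to 89.0%). Control naive replicate 1 was led by Igkj5 with 26 of 34 (76.5%, interval 58.8% to 89.3%) and replicate 2 by Igkj1 with 22 of 27 (81.5%, interval 61.9% to 93.7%). These intervals cover counting error only. Of the Sox2Hi libraries, treated replicate 2 was led by Igkj5 with 79 of 138 (57.2%, interval 48.5% to 65.6%). In 4 libraries the leader held 45.0% to 48.0% of 20 to 54 counts: Igkj4 in control naive replicate 3, Igkj5 in Sox2Hi naive replicate 1, and Igkj1 in Sox2Hi naive replicate 3 and Sox2Hi treated replicate 1. In Sox2Hi naive replicate 2, which had 743 kappa J counts, Igkj1 led with 39.0% and Igkj4 had 278 counts.

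**Figure D4:**
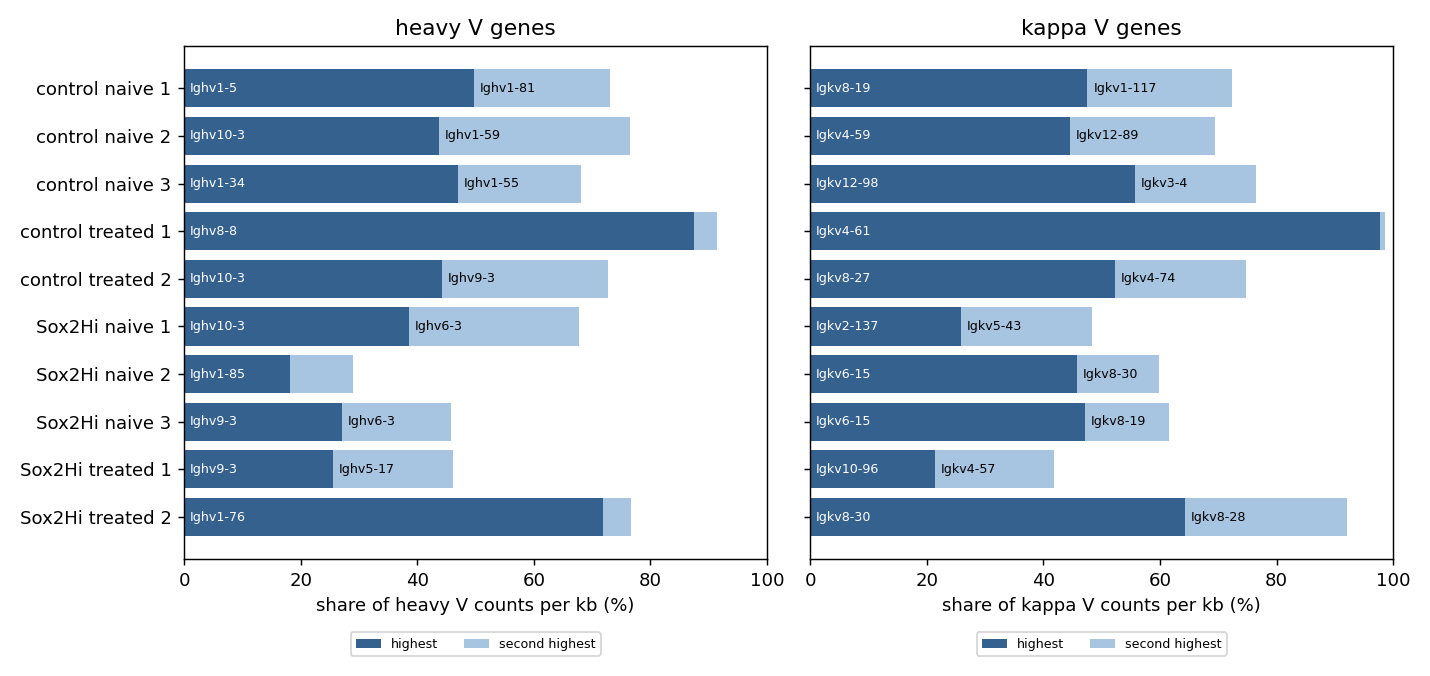
Share of the highest and second highest V gene in each library's heavy (left) or kappa (right) V counts per kb of exon (percent), with gene names. Control treated replicate 1 reaches 87.5% and 97.7% with its leading genes, against 18.1% for the heavy leader of Sox2Hi naive replicate 2.

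Jchain, which links IgM and IgA into polymers, was well above background in every library, at 13 to 924 times the silent rate. Its CPM (counts scaled to TMM library sizes) was 93.0, 54.1 and 49.4 in control naive, with 35.4 and 134 in control treated. In Sox2Hi naive it was 143, 606 and 184, with 92.4 and 10.9 in Sox2Hi treated. The 3 Sox2Hi naive libraries were above all others, and Sox2Hi treated replicate 2 was lowest. Mzb1, a chaperone of antibody secretion, had 98 counts in control treated replicate 2, 436 in Sox2Hi naive replicate 2 and 0 to 66 elsewhere. Since 55.1% of its 31-base stretches are shared with a gene annotated as SPATA24, its counts are uncertain. In the fit of all libraries without a replicate block neither gene passed the test in any of the 5 contrasts described next (edgeR quasi-likelihood test, lowest Benjamini-Hochberg adjusted p = 0.0763 for Jchain and 0.0840 for Mzb1). With naive libraries alone paired by replicate number, both were higher in the Sox2Hi graft, Jchain by 1.91 (SE 0.42, edgeR adjusted p = 0.0244) and Mzb1 by 3.22 (SE 0.46, edgeR adjusted p = 0.00764) in log2 units. With a block over all libraries neither passed, whether by title number (edgeR adjusted p = 0.121 and 0.0719) or by the number in the column name (0.128 and 0.141).

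The table as a whole was tested with edgeR, and 71 of the 95 members passed its filter on low counts. Because many members reach the sum of 100 through a single library, the counts of members that passed the test are given as descriptions beside the share of all tested genes that passed, and no median over them is given. The grafts and treatments share groups across contrasts, so the contrasts are not independent of each other.

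Neutrophil libraries from treated control tumours held more IgM, IgG2c and kappa RNA and less IgA RNA than those from naive ones. Ighm was at 21, 50.3 and 28.3 CPM in naive libraries and 142 and 252 in treated ones, a log2 fold change of 2.57 (SE 0.45, edgeR quasi-likelihood adjusted p = 0.00129). Ighg2c was at 9.49, 0.989 and 0.343 against 56.4 and 238 CPM (5.35, SE 1.69, edgeR adjusted p = 0.0306). Igkc was at 131, 161 and 71.2 against 330 and 1014 CPM (2.47, SE 0.85, edgeR adjusted p = 0.0430). In these 3 genes both treated libraries lay above all 3 naive ones on this TMM scale, whose factors were 0.63 and 0.59 for the treated libraries and 1.20 to 1.40 for the naive ones. Per library total, Igkc was at 161, 224 and 85.2 CPM against 208 and 597, which overlap, while Ighm and Ighg2c were still apart. Igha was at 22.8, 43.2 and 16.5 CPM against 0.671 and 1.48, a change of -4.65 (SE 1.26, edgeR adjusted p = 0.0158), with the groups apart. Groups were apart in 58.6% of all genes tested by TMM-scaled CPM and in 80.5% per library total.

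In that contrast 15 of 71 members passed, against 34% of all 29648 genes tested. There were 13 higher members (18.7% of all genes were higher) and 2 lower (15.3% were lower). With TMM factors taken from genes of at least 5 CPM, 12 members were higher and 10 lower, against 54.6% of all genes called. The other 10 higher members included Iglc2, Iglv2, Igkv8-27, Igkv4-74, Igkv13-84, Igkj2, Ighj2, Ighv9-3 and Ighv1-80, in each of which control treated replicate 2 was high and replicate 1 was at 0 to 7 counts. Igkv13-84, for instance, had 1, 1 and 0 counts in control naive, then 0 and 2084. Ighv8-8 had the opposite form, with 178 and 0 counts in the treated libraries. Igkv1-117 was the second lower member, with 506, 33 and 0 counts against 0 and 0, at least 38.0-fold lower in treated tumours against a floor of 3 counts per library. Only 4 of the 13 higher and 1 of the 2 lower members had groups that did not overlap by TMM-scaled CPM, and 3 of the 15 by CPM of the library total. Among all 10078 genes called in this contrast the share without overlap was 99.2% by TMM-scaled CPM and 71.6% by CPM of the library total.

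Without control treated replicate 2 the log2 change was 2.13 for Ighm, 1.48 for Igkc, 3.98 for Ighg2c and -5.31 for Igha. Without control treated replicate 1 the Igha change was -4.19. Each of these fits leaves 1 treated control library, so calls there cannot show whether the 15 hold. Of the 10 T and NK cell list genes 6 were higher in treated control tumours, and they summed to 335 CPM of the library total in replicate 2, against 96.4 in replicate 1 and 56.7 to 96.3 in control naive. The other lists of cells that a sort could hold moved as well. Of 17 neutrophil list genes tested 16 were higher, and the list summed to 28989 and 30002 CPM of the library total in treated libraries against 13543 to 21266 in naive ones. Of 6 fibroblast genes 4 were lower, with sums of 62.4 and 71.4 against 300.4 to 869. Of 8 mast cell genes 4 were lower and 1 higher (7.29 and 21.1 against 42.5 to 248). Of 8 keratinocyte genes 1 was lower (711 and 1109 against 1825 to 3585), and of 6 erythroid genes 1 was lower (38.1 and 227 against 628 to 1660). Of 8 macrophage genes 4 were higher, though their sums on the library total were 382 and 720 against 715 to 1056. The part of these cells in the result was not tested.

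Libraries from treated Sox2Hi tumours held fewer counts of 3 kappa V genes and 1 heavy V gene. Igkv8-24 had 615, 814 and 433 counts in the naive libraries and 0 and 22 in the treated ones (log2 fold change -5.71, SE 0.76, edgeR adjusted p = 0.00316). Igkv5-43 had 861, 363 and 114 against 0 and 0, at least 136-fold lower in treated tumours against the same floor (edgeR adjusted p = 0.00427). Igkv1-110 had 756, 426 and 955 against 0 and 0, at least 223-fold lower (edgeR adjusted p = 0.0240). Ighv6-3 had 538, 32 and 295 against 2 and 8 (-5.67, SE 1.13, edgeR adjusted p = 0.0247). All 4 genes were higher in each naive library than in both treated ones, as every called gene in this contrast was apart (100% of 1070). Igkv1-110 and Igkv5-43 have only 36.4% and 33.2% of stretches unique to them, the first sharing 63.1% with Igkv1-117, which had 563, 524 and 600 against 8 and 6 counts.

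These 4 of 71 members were all that passed, all lower, against 3.61% of all genes in either direction, 1.82% lower and 1.79% higher. None of 12 constant genes passed the edgeR test, and 8 had an unadjusted p under 0.05. Igkc was at 243, 3179 and 458 CPM in naive and 202 and 357 in treated libraries, which overlap (log2 fold change -2.21, SE 0.93, edgeR adjusted p = 0.191). Igha was at 105, 106 and 61.9 against 67.7 and 1.33 CPM, with treated replicate 1 inside the naive range (-1.40, SE 0.95, edgeR adjusted p = 0.429). Groups did not overlap for Ighg2b, at 152, 138 and 52.3 against 27.2 and 28.9 CPM (-2.02, SE 1.06, edgeR adjusted p = 0.298), and for Jchain (-2.59, SE 0.90, edgeR adjusted p = 0.123). Ighm, at 55.4, 181 and 111 against 54.0 and 52.1 CPM, was apart by TMM-scaled CPM and overlapped per library total (-1.12, SE 0.47, edgeR adjusted p = 0.188). Of all genes tested, 43.7% had groups apart by TMM-scaled CPM. Without Sox2Hi treated replicate 2, 1 library is left in that group, so calls there cannot show whether these 4 hold. Without 1 naive library 3 to 8 members passed, against 0.58% to 8.68% of all genes. Lists of other cells moved here too: 3 of 6 erythroid genes were lower (summed CPM of the library total 25.5 and 54.4 in treated libraries, 308 to 694 in naive ones) and 2 of 8 keratinocyte genes were lower (1512 and 2365 against 3312 to 4856). Of 17 neutrophil genes 7 were higher, with sums of 17806 and 21207 that overlap the naive 13467 to 18435. No fibroblast gene of 6 passed the edgeR test and 4 had an unadjusted p under 0.05 (84.8 and 326 against 542 to 810). Of 10 T and NK cell genes 1 was higher (136 and 268 against 44.0 to 149), as was 1 of 8 mast cell genes (26.4 and 67.1 against 60.6 to 106). What these cells contributed was not tested.

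Between naive tumours, the Sox2Hi graft held more counts of 6 V genes, and 5 of these had groups that did not overlap, as did 99.8% of all 554 genes called in this contrast and 34.7% of all genes tested. Igkv8-24 was at 31.1, 47.4 and 24.2 CPM in Sox2Hi and 0, 0.104 and 0.0979 in control, where 4 reads in all were counted. The ratio of summed counts was 507, with an exact counting interval of 198 to 1861 (edgeR adjusted p = 0.00323). Igkv5-43 had 861, 363 and 114 counts against 3, 2 and 10 (6.52, SE 0.79, edgeR adjusted p = 0.0273). Igkv6-15 had 13, 17178 and 3031 against 8, 6 and 2, so replicate 1 lay close to the control libraries (10.47, SE 2.26, edgeR adjusted p = 0.0440). The other 3 were Ighv14-2, Ighv6-3 and Ighv1-54, the last with 2 counts in Sox2Hi naive replicate 1.

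That is 6 of 71 members, all higher, against 1.87% of all genes in either direction, 1.66% higher and 0.209% lower. Paired by replicate number, the naive libraries alone gave 22 of 32 members tested (21 higher, 1 lower, with 14.3% of all genes called), and 4 of these 22 were among the 6. In some library of the group, 51 V genes reached 100 counts in Sox2Hi naive and 15 in control naive. Members could thus pass the filter through the Sox2Hi graft, and the number and direction of these calls are a description only. Among the 12 constant genes none passed the edgeR test without the block and 10 had an unadjusted p under 0.05. All 3 Sox2Hi naive libraries exceeded all 3 control naive ones for Ighm, Ighg2b, Igha, Igkc, Jchain and Mzb1. For Ighm this did not hold per library total (59.998 CPM in Sox2Hi replicate 1 against 69.9 in control replicate 2). For Ighm the values were 55.4, 181 and 111 CPM against 21, 50.3 and 28.3 (1.80, SE 0.42, edgeR adjusted p = 0.0516), and with the block in the naive libraries alone the change was 1.66 (SE 0.16, edgeR adjusted p = 0.00134). For Igkc they were 243, 3179 and 458 against 131, 161 and 71.2 (3.42, SE 0.84, edgeR adjusted p = 0.0562), and with that block 2.56 (SE 0.51, edgeR adjusted p = 0.0194). The block also called Igha (1.72, edgeR adjusted p = 0.00259), Ighg2b (4.69, 0.00975), Ighg3 (3.01, 0.0429), Iglc2 (5.43, 0.00823) and Iglc3 (6.90, 0.0187), all higher in Sox2Hi, and did not call Ighg1, Ighg2c, Ighd, Ighe and Iglc1. Of the 7 constant genes called with it, a block over all libraries by title number kept Ighm, Igkc, Ighg2b and Iglc3 (edgeR adjusted p = 0.0178, 0.0260, 0.0223 and 0.0466) and not Igha, Ighg3 and Iglc2 (0.209, 0.152 and 0.108). A block by the number in the column name called no constant gene by the edgeR test (lowest adjusted p = 0.0501, for Ighm), and 8 of 12 had an unadjusted p under 0.05. The Ighg1 change was 3.31 without a block and -0.03 with the block in the naive libraries alone. Leaving out a single naive library left 1 call (without control naive replicate 1) to 5, and 3 without Sox2Hi naive replicate 2, all 3 among the 6. The calls over all genes fell too, from 554 of 29648 to 3 of 29150 without control naive replicate 1 and to 9 of 29599 without Sox2Hi naive replicate 2. The macrophage list summed to 1141 to 1557 CPM of the library total in Sox2Hi naive libraries and 715 to 1056 in control naive ones, which do not overlap, with no gene of 8 passing the edgeR test and 5 at an unadjusted p under 0.05. Of 8 keratinocyte genes 2 were higher in Sox2Hi (3312 to 4856 against 1825 to 3585, which overlap). None of 17 neutrophil genes passed the edgeR test, 5 had an unadjusted p under 0.05, and the sums overlapped (13467 to 18435 against 13543 to 21266). Whether these cells bear on the members was not tested.

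Between treated tumours, Igha and Ighm went in opposite directions. Igha was at 67.7 and 1.33 CPM in Sox2Hi and 0.671 and 1.48 in control, so Sox2Hi replicate 1 alone set the difference (4.98, SE 1.31, edgeR adjusted p = 0.0301), and without it the change was 0.23 (edgeR adjusted p = 0.888). Ighm was at 54.0 and 52.1 CPM in Sox2Hi against 142 and 252 in control, with no overlap (-1.90, SE 0.51, edgeR adjusted p = 0.0327). Of all genes tested, 60.3% had no overlap by TMM-scaled CPM and 70.7% per library total. The other calls were Igkv10-96 and Ighv5-17 higher in Sox2Hi, and Igkv8-27 and Igkv4-74 lower, each resting on 1 library.

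In that contrast 6 of 71 members passed, 3 in each direction, against 13.7% of all genes (4.18% higher and 9.57% lower). With factors from genes of at least 5 CPM, 6 were higher and 2 lower, against 18.2% of all genes called. Ighm was then not called (-1.44, edgeR adjusted p = 0.0624). Leaving out Sox2Hi treated replicate 1 gave no call (15 members had an unadjusted p under 0.05), and leaving out control treated replicate 2 gave 1. Of 17 neutrophil genes 11 were lower in Sox2Hi, with sums of 17806 and 21207 CPM of the library total against 28989 and 30002 in control. Of the 8 keratinocyte genes 1 was higher (1512 and 2365 against 711 and 1109), as was 1 of the 8 mast cell genes (26.4 and 67.1 against 7.29 and 21.1), and 1 erythroid gene was lower (25.5 and 54.4 against 38.1 and 227). Their part was not tested.

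The change with treatment differed between grafts for 17 of 71 members by the interaction term, 15 of them lower in Sox2Hi, against 27.5% of all genes (11.3% higher and 16.2% lower). For Ighm the difference in log2 change was -3.70 (SE 0.66, edgeR adjusted p = 0.00510): it rose in control tumours, while its change of -1.12 in Sox2Hi tumours did not pass (edgeR adjusted p = 0.188). For Igkc the difference was -4.69 (SE 1.27, edgeR adjusted p = 0.0211), and for Ighg2c -7.82 (SE 2.45, edgeR adjusted p = 0.0357). Igha did not pass this test (3.25, SE 1.51, edgeR adjusted p = 0.120). Leaving out a treated library leaves 1 in its group, so calls there cannot show whether these 17 hold. Without 1 naive library 12 to 18 members passed, against 19.9% to 31.6% of all genes. By the same term 13 of 17 neutrophil, 10 of 17 plasma cell and 2 of 8 macrophage list genes were lower in Sox2Hi and 1 of 8 mast cell genes was higher, with the summed levels given for the other contrasts. The macrophage sums not given there were 651 and 1175 CPM of the library total in Sox2Hi treated. No gene of the T and NK cell, keratinocyte, fibroblast and erythroid lists passed the edgeR test (1, 0, 0 and 1 with an unadjusted p under 0.05). Their part was not tested.

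Genes that accompany antibody secretion were read from lists of plasma cell and B cell genes. The defining plasma cell receptor Tnfrsf17 had 2 to 8 counts in all 10 libraries, 0.519 to 1.33 times the silent rate. Irf4, a plasma cell transcription factor, was at 0.730 to 2.51 times that rate, and Pou2af1, a B cell coactivator, at 0.423 to 0.904 times it in 9 libraries and 7.36 times in Sox2Hi naive replicate 2. These 3 genes were thus at or near background in at least 9 of the 10 libraries, and the members are called immunoglobulin genes here. Of the 18 plasma cell list genes other than Jchain and Mzb1, 14 or 15 were over 3 times the silent rate in each library. The exceptions were among these 3 genes and Derl3, which had 25 counts in control treated replicate 2 and 4 to 19 elsewhere. Jchain was well above that rate in every library. Mzb1 was above it in some, with 436 counts in Sox2Hi naive replicate 2 and 98 in control treated replicate 2. Xbp1, Sdc1, Prdm1, Ell2 and Sec11c, on the same list, were 6.97 to 312 times the silent rate in every library, and myeloid or epithelial cells express such genes too.

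Of these 18 plasma cell list genes 17 were tested. In treated against naive control tumours 9 were higher and none lower, where 18.7% and 15.3% of all genes tested were, led by Ly6c2 (log2 fold change 4.69), Cd38 (2.71) and Slamf7 (2.32), which myeloid cells also express. In Sox2Hi tumours 3 were higher, the same 3 by name, and 1 lower, Txndc5 (-1.52), against 1.79% and 1.82% of all genes. Between naive grafts 2 were higher in Sox2Hi, Xbp1 (0.89) and Trp53inp1 (0.90), against 1.66% of all genes, and between treated grafts 7 were lower, against 9.57%. Their summed level, as CPM of the library total, was 660 to 709 in control naive, with 1003 and 1077 in control treated. It was 827 to 945 in Sox2Hi naive, with 826 and 855 in Sox2Hi treated. Most of the rise for the control graft came from Ly6c2 alone, with 454, 425 and 301 counts for naive libraries against 6886 and 5998 for treated ones. For the Sox2Hi graft Ly6c2 had 472, 391 and 265 counts against 2053 and 2770. The sums therefore do not show how the list moved as a set.

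B cell genes stood out in 1 library. In Sox2Hi naive replicate 2, Cd79a, part of the B cell receptor, was 120 times the silent rate, Cd79b 91.1 times, Fcmr 36.3 times and Ms4a1 26.4 times. The 19 B cell list genes summed to 403 CPM of the library total there, with 18 of them over 3 times the silent rate, and to 68.9 to 171 in the other 9 libraries with 4 to 11 genes. That library is also the one with Ighd, Ighg3 and 44 V genes, and the part of these cells in the results was not tested. Of 18 B cell list genes tested, Fcrl1 (2.03) was higher and Spib (-1.31) lower in treated control tumours, against 18.7% and 15.3% of all genes, and none passed the edgeR test between naive grafts or in Sox2Hi treatment (7 and 6 with an unadjusted p under 0.05).

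**Figure D5:**
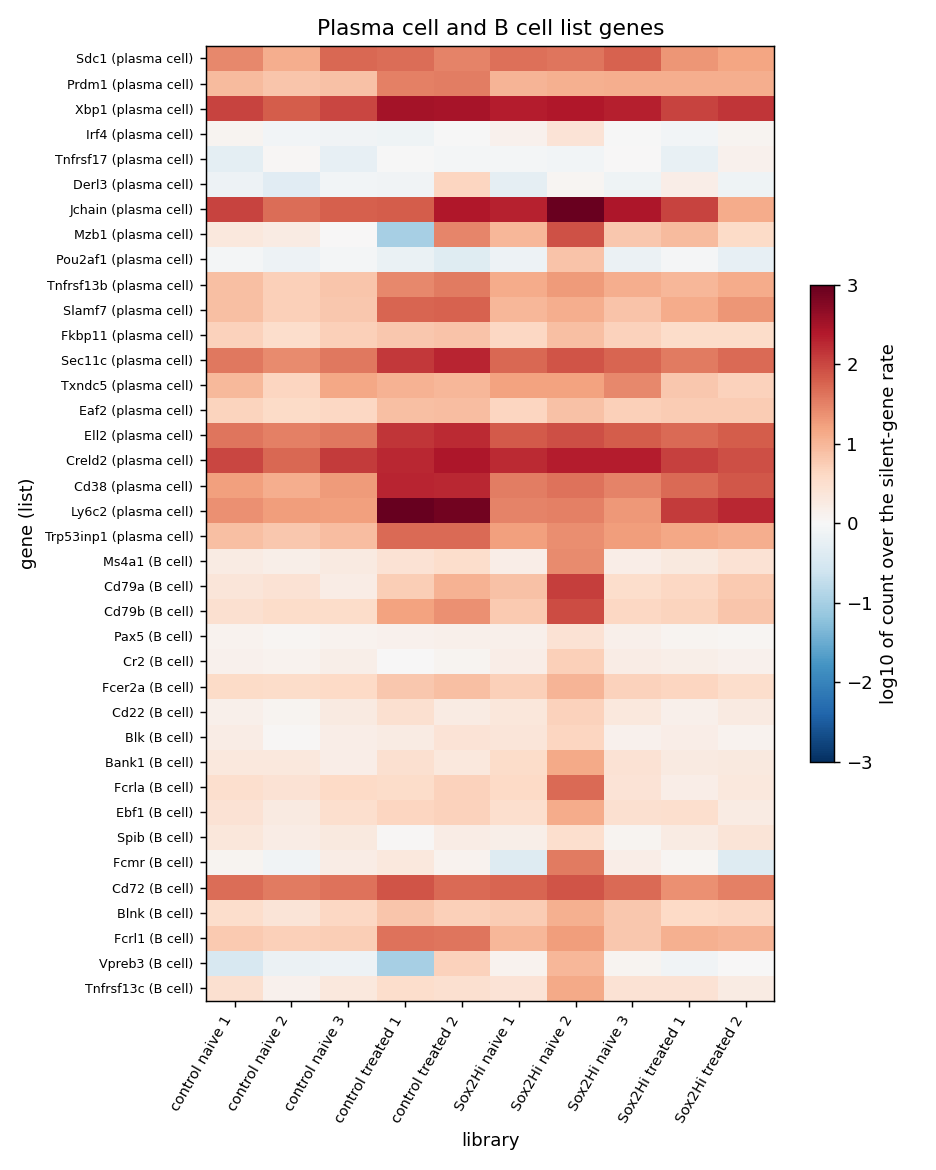
Plasma cell and B cell list genes reported here in each library, as log10 of the count over that expected from the silent-gene rate (values below 0.1 drawn at 0.1). Tnfrsf17 is near the white midpoint throughout, Jchain is red in all libraries, and Cd79a, Cd79b, Ms4a1 and Fcmr are strongest in Sox2Hi naive replicate 2.

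Germinal centre and class switch genes stayed low, with at most 3 of 8 over 3 times the silent rate in a library. In treated control tumours Bcl6 was higher (1.07), and Ung (-1.64), Gcsam (-1.17) and Mybl1 (-0.75) were lower, again beside 18.7% and 15.3% of all genes. Of 10 genes for IgA homing, survival and transport, Tnfsf13 (2.39), Itgb7 (1.98), Tnfsf13b (1.30) and Il6 (0.79) were higher in treated control tumours and Pigr (-0.94), the epithelial carrier of polymeric IgA, was lower, beside the same shares. None of the 10 passed the edgeR test in Sox2Hi treatment or between naive grafts (3 in each with an unadjusted p under 0.05). Between treated grafts Tnfsf13b (-0.86) and Itgb7 (-0.90) were lower in Sox2Hi, Fcrl1 of the B cell list (-1.20) was lower and Ung of the germinal centre list (1.26) was higher, against 9.57% of all genes lower and 4.18% higher. By the interaction Ccl28 (1.30) and Spib (1.74) were higher and Itgb7 (-1.22) and Fcrl1 (-1.72) lower, against 11.3% and 16.2% of all genes. No germinal centre gene passed the edgeR test in the interaction, Sox2Hi treatment or between naive grafts (3, 0 and 2 with an unadjusted p under 0.05).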

How the data were processed

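The authors deposited 1 table of estimated counts per gene, made with kallisto 0.44.0 and the mm10 build per the submitters' processing notes. Its transcript annotation is not given in the sources used here. Values were used as whole-number counts, with no rounding needed. Rows without a mouse gene identifier (137 to 514 counts a library) did not enter library sizes. Gene types, symbols, exon lengths and sequences came from GENCODE M21 (GRCm38).

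The members and lists were chosen with earlier results of these data known. A model of the 4 groups over all 10 libraries was fitted in edgeR 4.0.16 under R 4.3.3. Low counts were removed by filterByExpr, library sizes scaled by TMM, and contrasts tested by quasi-likelihood, which was tested on simulated data. This tested 29648 genes, called at a Benjamini-Hochberg adjusted p under 0.05 over all of them. Standard errors are the log2 fold change over the square root of F. CPM is TMM-scaled. Isotype and V shares use counts per kb of exon. Exact binomial intervals and the floor of 3 counts per library cover counting error only. A plain count table cannot separate reads of near-identical V genes.

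The genes named are the constant and partner genes, the leading V genes of each library, the 3 largest rises and falls with a mean of at least 10 CPM per contrast and the genes at the minimum. Others were named after their values were seen, and some list genes are not reported here. Replicates differed beyond counting noise (smallest chi-square per degree of freedom 12.5). Deviations from group means of naive libraries with the same title number correlated at 0.274, 0.241 and 0.180 across genes, so these numbers were taken to pair them, although no label says what a number marks. For treated libraries the numbers in titles and deposited column names differ. Alternatives were DESeq2 1.42.0, limma-voom 3.58.1, RLE factors, other filters, background subtraction, replicate blocks and leaving out each library.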

Additional observations from a re-analysis of the deposited data

Results flagged for a closer look

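The graft by treatment interaction, a test of the difference between 2 treatment effects, passed for 17 immunoglobulin genes, against 27.5% of all genes. It was negative, that is, the treatment change was lower in Sox2Hi than in control tumours, for Iglv2 (-14.94), Igkv6-15 (-14.79), Iglc2 (-13.0), Iglc3 (-9.77), Ighg2c (-7.82), Igkc (-4.69) and Ighm (-3.70), each in log2 units from edgeR. The fitted values of the first 4 and of Ighg2c rest on groups in which some libraries hold only background counts. Ighg2c was at 1.62 and 0.805 times the silent rate in control naive replicates 2 and 3, and at 1.24 times in Sox2Hi naive replicate 1. Iglv2 and Iglc2 were high in control treated replicate 2 and Sox2Hi naive replicate 1, and Iglc3 in Sox2Hi naive replicate 2. So 1 or 2 libraries carry Iglv2, Iglc2 and Iglc3. Igkv6-15 had 17178 and 3031 counts in Sox2Hi naive replicates 2 and 3 and 270 in control treated replicate 2.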

How the results depend on the processing

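Among the named and constant genes called in a contrast, 332 alternative values kept their direction and side of the threshold, 115 kept their direction but lost the call, and 6 reversed. All 6 reversals came without control treated replicate 2: leaving out 1 library gave, for control treatment, -3.40 to 11.51 for Igkv4-74, -0.61 to 11.47 for Igkv8-27, -2.53 to 11.91 for Igkv13-84 and -0.27 to 9.24 for Iglc2, and between treated grafts -10.58 to 4.13 for Igkv4-74 and -11.55 to 2.43 for Igkv8-27. In what follows the share of all genes called stands in brackets. Leaving out a treated library leaves 1 in its group, so counts of calls from those fits are not given. For control treatment (15 called, 34%), limma-voom gave 1 (26.9%) and background subtraction 9 (30.9%). Without 1 naive library there were 10 to 18 (26.3% to 33.6%). For Sox2Hi treatment (4 called, 3.61%) the counts were 11 with DESeq2 (10.8%), 2 with limma-voom (9.03%), 9 with factors from genes of at least 5 CPM (1 higher, 8 lower, 6.32%), 11 with no filter (2 higher, 9 lower, 1.69%) and 8 with only genes of at least 5 CPM (21.7%). Without 1 naive library there were 3 to 8 (0.58% to 8.68%). For naive grafts (6 called, 1.87%) they were 16 with DESeq2 (13.7%), 11 with RLE factors (4.35%), 15 with factors from genes of at least 5 CPM (13.2%), 19 with no filter (1.22%) and 3 after background subtraction (2.5%). Without 1 naive library there were 1 to 5 (0.0103% to 7.39%). For treated grafts (6 called, 13.7%) they were 10 with DESeq2 (18.2%), 2 with limma-voom (11.2%), 11 with no filter (5.94%) and 0 after background subtraction (3.47%, with 14 at an unadjusted edgeR p under 0.05). Without 1 naive library there were 5 to 7 (9.31% to 18.1%). For the interaction (17 called, 27.5%) they were 3 with limma-voom (26.7%), 6 with only genes of at least 5 CPM (19.8%) and 3 after background subtraction (8.09%). Without 1 naive library there were 12 to 18 (19.9% to 31.6%). With no filter 95 members were tested, with only genes of at least 5 CPM 31, after background subtraction 68 and without 1 naive library 47 to 70, against 71 otherwise. The causes were not tested, apart from fewer genes being tested under a stricter filter.

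The replicate numbers of naive libraries are the same in titles and deposited column names, but 3 of the 4 treated libraries carry another number in the column name. A replicate block by title number over all libraries gave 14 calls for control treatment (9 of the 15 among them, 34.4% of all genes called). For Sox2Hi treatment it gave 7 (3 of the 4, 3.41%) and for naive grafts 19 (all 6, 7.7%). For treated grafts it gave 8 (2 of the 6, 16.1%) and for the interaction 14 (11 of the 17, 30%). A replicate block by column number, chosen after seeing the data, gave 9 for control treatment (7 of the 15, 28.9%). For Sox2Hi treatment it gave 9 (all 4, 4.75%) and for naive grafts 8 (5 of the 6, 1.02%). For treated grafts it gave 10 (none of the 6, 11%) and for the interaction 8 (7 of the 17, 24.9%). The replicate block on naive libraries alone, which needs no such choice, gave 22 (14.3%). Treated libraries with the same title number correlated at -0.145. In those 4 libraries alone a crossed replicate block, chosen after seeing the data, gave 1 member called of 27, with 5 of all 25287 genes called. A block by title number gave 4 members, with 1250 of all genes, and no block gave 1, with 2 of all genes. By raw counts in place of counts per kb, the Igha share was 27.7% in control naive and 0.315% in control treated. Leaving out 1 library gave immunoglobulin shares of 0.0337% to 0.0529% in control naive, 0.0509% to 0.193% in control treated, 0.134% to 0.569% in Sox2Hi naive and 0.0620% to 0.0678% in Sox2Hi treated. Igha shares ran from 21.2% to 25.2%, 0.176% to 0.210%, 9.70% to 21.9% and 1.18% to 27.2%, and leading kappa V shares from 46.0% to 51.7%, 52.3% to 97.7%, 35.8% to 46.5% and 21.4% to 64.3%, in the same order.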
